A study of Mus musculus with 4 samples.

Results

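The 4 genes of calcium/calmodulin-dependent protein kinase II (CaMKII), Camk2a, Camk2b, Camk2d and Camk2g, were followed through every peak that carries their name in a table of N6-methyladenosine (m6A) peaks from mouse cerebral cortex. They held 17 of the table's 33977 peaks (7 for Camk2a, 5 for Camk2b, 3 for Camk2g and 2 for Camk2d), and all 17 passed the filter on low counts. The members were chosen by gene name and not by a measured value, though with earlier results of these data known. The assay, MeRIP-seq, sequences RNA fragments that an anti-m6A antibody has captured. The groups were cortex after repetitive mild traumatic brain injury (rmTBI, labelled TBI, 2 libraries) and cortex after a sham procedure (2 libraries), and per the labels all 4 libraries were made from TRIzol-extracted total RNA with the same anti-m6A antibody. The sources used here give no strain, age, sex, injury protocol, time after injury or pooling of animals. In each group the libraries bear the numbers 0 and 1, and the labels state neither what the number stands for nor which mice were used. The p-values below therefore describe the spread between libraries, which may be technical, and if the numbers mark kinds of library from one RNA, each group is 1 sample and the test has no replicates.

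CaMKII is a serine/threonine kinase that binds calcium-loaded calmodulin and then phosphorylates itself, which keeps it active after calcium has fallen. Its subunits assemble into large holoenzymes. The alpha and beta subunits dominate in forebrain neurons, where the kinase gathers at excitatory synapses and is required for long-term potentiation, while delta and gamma are expressed in most tissues. The mark m6A lies mostly near stop codons and in 3' UTRs of messenger RNAs and bears on their stability, translation and transport. Camk2a mRNA is itself carried into dendrites, a property that resides in its 3' UTR.

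Overlapping rows on the same strand were joined, since peaks had been called once for rmTBI and once for sham, and the 17 rows then stood for 11 separate peaks. Of the rows, 14 lay in 3' UTRs, 2 in a 5' UTR and 1 in coding sequence by the class given in the table, while 3' UTRs held 39.5% of all tested peaks and coding sequence 50.7%. Camk2a, which encodes the alpha subunit, had 5 separate peaks on chromosome 18 (plus strand): 1 in the 5' UTR (60925617 to 60925708) and 4 in the 3' UTR (60985193 to 60985373, 60985462 to 60985642, 60985910 to 60986240 and 60987404 to 60987674). The fourth of these 3' UTR peaks ended 478 bases before the end of the RefSeq gene. Camk2b, the beta subunit gene, had 3 separate peaks on chromosome 11 (minus strand), all in the 3' UTR, which in the order of transcription lay at 5971499 to 5971769, 5970780 to 5970931 and 5969972 to 5970632. Camk2g, the gamma subunit gene, had a coding peak on chromosome 14 (minus strand) with a genomic span of 8435 bases that includes introns (20739396 to 20747830) and a 3' UTR peak (20736128 to 20736726). Camk2d, the delta subunit gene, had 1 separate peak, in its 3' UTR on chromosome 3 (plus strand, 126842916 to 126843156). Positions are those of the deposited table and are read as GRCm38, because 98.3% of 31971 peaks overlapped the span of their own gene in the RefSeq table of GRCm38.p6, although the processing notes name GRCm39.

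Of the 11 separate peaks, 6 appeared in both the rmTBI and the sham set, 4 in the sham set alone (3 of Camk2a and 1 of Camk2b) and 1 in the rmTBI set alone (the coding peak of Camk2g). The rmTBI numbering skips exactly 3 numbers between its Camk2a rows and 1 between its Camk2b rows. Those numbers have no row among the 33977 peaks, and they match the counts of sham-only peaks of each gene. A peak with a row in the sham set alone therefore cannot be taken as absent after rmTBI. Nor can the Camk2g coding peak be taken as absent in sham, where libraries 0 and 1 held 978 and 1109 counts (955 and 1254 in rmTBI). The share of peaks found in 1 set alone over the whole table was not computed. Counts in all 4 libraries are given for each row whichever set it came from.

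Levels between the genes were set side by side per length, as CPM (read counts scaled to library size by TMM) divided by the peak's span in kilobases, at the separate peak with the highest value in each gene. Camk2a stood highest, with 2797 and 1974 CPM per kilobase in the rmTBI libraries 0 and 1 and 2073 and 1587 in the sham libraries 0 and 1, at the last of its 3' UTR peaks. By its mean on this scale that peak ranked 21 among the 33977 rows. Camk2b followed with 834 and 580 in rmTBI and 867 and 616 in sham at its second 3' UTR peak, then Camk2g with 63.6 and 133 in rmTBI and 67.5 and 117 in sham at its 3' UTR peak, and Camk2d with 43.4 and 31.0 in rmTBI and 37.3 and 33.4 in sham. The order was the same in all 4 libraries, and the values of neighbouring genes did not overlap. A peak shorter than the sequenced fragments gathers reads that reach beyond it, so these values depend on how the peak ends were set. The span is genomic, so a row that crosses introns stands lower on this scale, as the Camk2g coding peak does (8435 bases, rank 24451). The ranks of compact 3' UTR peaks among all rows depend on this. Nor do these values tell more methylation of a transcript from more of the transcript.

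**Figure D1:**
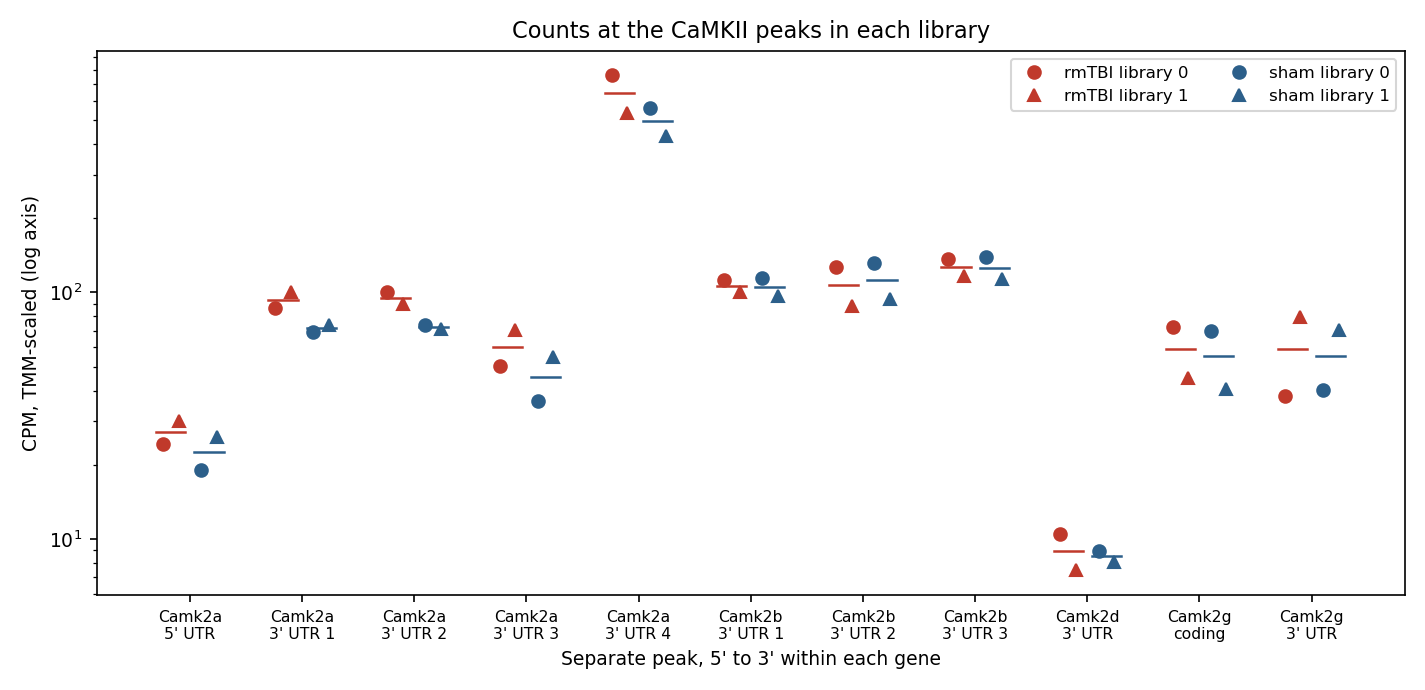
TMM-scaled CPM (log axis) at the 11 separate CaMKII peaks, ordered 5' to 3' within each gene. Red symbols are rmTBI libraries and blue symbols sham libraries, circles are libraries numbered 0 and triangles those numbered 1, and horizontal bars are means of 2 libraries. All 5 Camk2a peaks have a higher rmTBI mean, and at the Camk2g peaks the circles and triangles stand further apart than the red and blue bars.

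The rmTBI and sham libraries were compared to ask whether the m6A signal on the kinase transcripts differs after injury. At gene level Camk2a lay 1.31-fold higher in rmTBI, Camk2b, Camk2d and Camk2g lay close to 1-fold, and none of the 4 genes passed the test in the model of group alone. Of the 17 rows 0 were called by edgeR (quasi-likelihood test, Benjamini-Hochberg adjusted over 33415 peaks, adjusted p = 1.00 for each), where 0.0868% of all tested peaks were called. At an unadjusted p under 0.05 the count was again 0, beside 2.84% of all tested peaks. All libraries are labelled with the antibody, so these counts cannot tell more methylation of a transcript from more of the transcript, and fewer cells of a type cannot be told apart from less RNA per cell.

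For Camk2a the counts of the 5 separate peaks were summed, which gave 1626 and 1387 CPM in the rmTBI libraries 0 and 1 and 1210 and 1097 CPM in the sham libraries 0 and 1. Both rmTBI libraries stood above both sham libraries, a pattern shown by 12.5% of the 10214 genes tested. The means were 1507 ± 169 CPM in rmTBI and 1154 ± 79.5 CPM in sham (SD, n = 2 libraries each), with counts scaled to the sum over the separate peaks of all genes. The log2 fold of rmTBI over sham was 0.39 (SE 0.17, unadjusted p = 0.0552, adjusted p = 1.00, edgeR quasi-likelihood test), with a 95% interval of the fold of 0.992 to 1.72. It was 0.43 between the libraries with number 0 and 0.34 between those with number 1. By p-value Camk2a ranked 399 among the genes. This call depends on the model: with the label number added (a replicate block), Camk2a passed at a log2 fold of 0.38 (SE 0.03, adjusted p = 1.05e-31, edgeR), in a fit that called 14.4% of all tested genes and that contains no spread between samples if each group is 1 sample.

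The Camk2a difference, which did not pass the test, was of similar size at each of its peaks. The largest, the fourth 3' UTR peak, held 758 and 535 CPM in the rmTBI libraries and 562 and 430 CPM in the sham libraries (log2 fold 0.38, SE 0.25). Here the groups overlapped, because rmTBI library 1 lay below sham library 0. The first 3' UTR peak held 86.4 and 100.4 CPM in rmTBI and 69.0 and 73.9 CPM in sham (log2 0.39, SE 0.23). The second 3' UTR peak, which had the smallest p-value of the gene, held 101 and 90.1 CPM in rmTBI and 73.6 and 71.4 CPM in sham (log2 0.39, SE 0.23, unadjusted p = 0.127, edgeR). At these first and second peaks both rmTBI libraries lay above both sham libraries, which 12.3% of all tested peaks showed. The third 3' UTR peak held 50.5 and 70.2 CPM in rmTBI and 36.2 and 55.0 CPM in sham (log2 0.40, SE 0.31), and the groups overlapped. The 5' UTR peak, the only 5' UTR signal of the family, held 24.3 and 30.0 CPM in rmTBI and 19.0 and 25.9 CPM in sham (log2 0.27, SE 0.28), again with overlap. The shorter rmTBI row of this peak had a log2 fold of 0.33 (SE 0.31). Across the 5 separate peaks the log2 folds ran from 0.27 to 0.40, a range narrower than any 1 of their standard errors, and all 5 were higher in rmTBI within both label numbers, as were 32.0% of all tested peaks. The peaks share 1 transcript and are not replicates. Without the fourth 3' UTR peak, which holds most of the gene's counts, the gene-level log2 fold was 0.38 (SE 0.19).

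Camk2b, whose product binds actin and ties the holoenzyme to the spine cytoskeleton, lay near 1-fold. Its summed peaks held 599.6 and 514 CPM in the rmTBI libraries and 613 and 507 CPM in the sham libraries, and the groups overlapped fully. The gene-level log2 fold was -0.01 (SE 0.19), and the 95% interval of the fold, 0.733 to 1.35, includes the value of Camk2a. By separate peak the log2 folds were 0.01 for the first, -0.07 for the second and 0.01 for the third 3' UTR peak (SE 0.23 to 0.29). The third, with the most counts, held 137 and 117 CPM in rmTBI and 139 and 113 CPM in sham. The second, which had the smallest p-value of the gene, held 127 and 88.1 CPM in rmTBI and 132 and 93.7 CPM in sham (unadjusted p = 0.814, edgeR). In each of these peaks the libraries numbered 0 lay above those numbered 1 in both groups.

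Camk2g, whose product includes forms that carry calmodulin to the nucleus of neurons, held 176 and 209.7 CPM in the rmTBI libraries and 175 and 185 CPM in the sham libraries over its summed peaks. The groups differed by a log2 fold of 0.10 (SE 0.19, 95% interval of the fold 0.786 to 1.46). Its coding peak, which had the smallest p-value of the gene, held 72.4 and 45.1 CPM in rmTBI and 69.7 and 40.6 CPM in sham (log2 0.09, SE 0.35, unadjusted p = 0.802, edgeR). Its 3' UTR peak held 38.1 and 79.7 CPM in rmTBI and 40.4 and 70.2 CPM in sham (log2 0.09, SE 0.41). At both peaks the libraries of a group stood further apart than the groups did.

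Camk2d, which encodes the main CaMKII subunit of the heart and is less abundant in cortex, had the lowest counts, 138 and 208 in the rmTBI libraries and 126 and 220 in the sham libraries. These correspond to 10.5 and 7.48 CPM in rmTBI and 8.98 and 8.05 CPM in sham at its 3' UTR peak (log2 0.07, SE 0.28, unadjusted p = 0.812, edgeR). The fold changed sign between the label numbers, at 0.22 (log2) between the libraries with number 0 and -0.10 between those with number 1. At gene level the 95% interval of the fold ran from 0.672 to 1.64, the widest of the 4 genes.

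**Figure D2:**
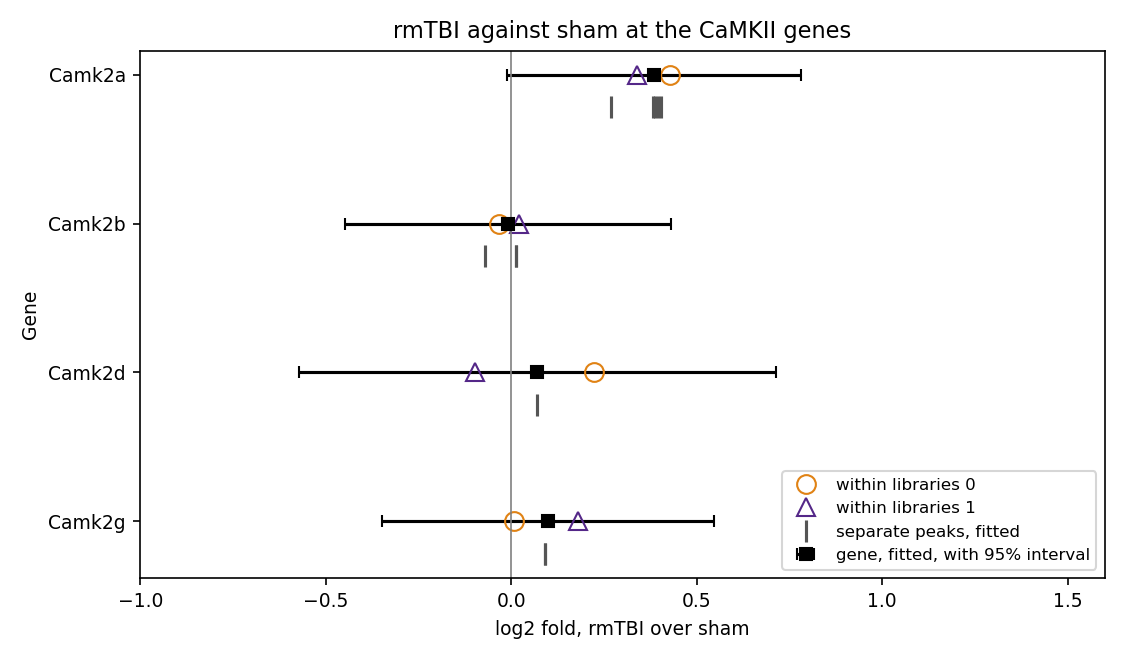
Log2 fold of rmTBI over sham for each kinase gene (black squares with 95% intervals from the edgeR fit), within the libraries numbered 0 (open circles) and 1 (open triangles), and at each separate peak (grey ticks). The Camk2a interval, with its lower end at a log2 of -0.01, lies furthest to the right, and the intervals of all 4 genes include 0 and overlap.

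Whether the kinases differed from one another in their response was examined through the log2 ratio of each pair of genes per library, in 6 pairs. The Camk2a to Camk2b ratio was 1.44 and 1.43 in the rmTBI libraries and 0.98 and 1.11 in the sham libraries, a difference of 0.39 (0.46 for number 0 and 0.32 for number 1). The groups did not overlap for this pair. Nor did they for Camk2a to Camk2d, with 6.60 and 6.78 in rmTBI and 6.40 and 6.35 in sham (difference 0.32). For Camk2a to Camk2g they overlapped (3.21 and 2.73 in rmTBI, 2.79 and 2.57 in sham, difference 0.29). The pairs without overlap share the Camk2a values and are not separate observations. How many of all gene pairs separate in this way was not computed. The 3 pairs without Camk2a differed by -0.10 to -0.03 between the groups, and the sign of Camk2b to Camk2d and of Camk2d to Camk2g turned between the label numbers. With 2 libraries a group, an exact permutation test (two-sided) cannot go below p = 0.333, which Camk2a to Camk2b and Camk2a to Camk2d reached (0.8 after adjustment over the 6 pairs), so this test cannot pass a threshold of 0.05 with these libraries.

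The division of Camk2g and Camk2a counts among their peaks differed more by label number than by group. At Camk2g the 3' UTR peak took 63.9% of the gene's counts in rmTBI library 1 (95% exact binomial interval 62.2 to 65.5) and 34.5% in rmTBI library 0 (32.1 to 37.0). In sham it took 63.4% in library 1 (61.6 to 65.1) and 36.7% in library 0 (34.3 to 39.2). The intervals cover counting error only. The libraries with number 1 thus held most Camk2g counts in the 3' UTR and those with number 0 most in the coding peak, in both groups alike. The log2 ratio of library 1 to library 0 at the 3' UTR peak was 1.06 in rmTBI and 0.80 in sham. Averaged over the groups, it lay above 91.4% of the tested 3' UTR peaks. At the coding peak the ratio was -0.68 in rmTBI and -0.78 in sham. Its average there lay below all but 5.88% of the tested coding peaks.

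Camk2a showed a smaller shift of the opposite kind inside its 3' UTR. The fourth 3' UTR peak took 64.8% of the gene's counts in rmTBI library 1 (64.2 to 65.4) and 74.3% in rmTBI library 0 (73.6 to 75.1), against 65.5% in sham library 1 (64.8 to 66.2) and 73.9% in sham library 0 (73.1 to 74.8). The third 3' UTR peak took 8.50% in library 1 and 4.95% in library 0 of rmTBI, and 8.37% in library 1 and 4.77% in library 0 of sham. The log2 ratio of library 1 to library 0 at the fourth peak was -0.50 in rmTBI and -0.38 in sham. At the third it was 0.47 in rmTBI and 0.60 in sham. The median of the tested 3' UTR peaks was 0.19 in rmTBI and 0.14 in sham. Averaged over the groups, the ratio lay above 10.1% of these peaks at the fourth peak and above 75.1% at the third. At the 5' UTR peak the ratio was 0.31 in rmTBI and 0.44 in sham, against a median of 0.04 in rmTBI and 0.02 in sham over the tested 5' UTR peaks. Camk2b divided its counts more evenly, and each of its 3 peaks took between 28.8% and 38.3% in every library. At its second 3' UTR peak the log2 ratio of library 1 to library 0 was -0.52 in rmTBI and -0.49 in sham. Averaged over the groups, that ratio lay above 7.43% of the tested 3' UTR peaks.

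**Figure D3:**
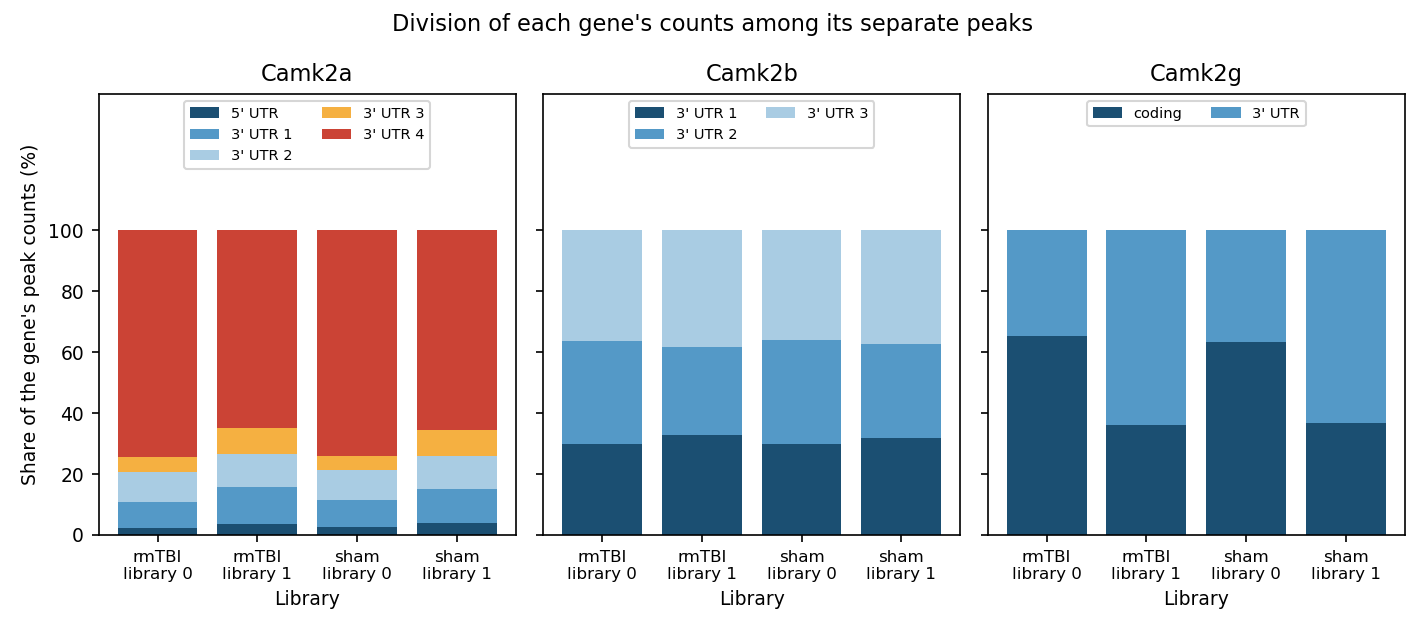
Share of the summed peak counts of Camk2a, Camk2b and Camk2g that fell on each separate peak, in percent, for the rmTBI libraries (left pair of bars) and the sham libraries (right pair). Colours are the separate peaks from 5' (bottom) to 3' (top). The bars of equal number look alike across the groups, and the Camk2g 3' UTR share is 63.9% and 63.4% in the libraries numbered 1 and 34.5% and 36.7% in those numbered 0.

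The authors' deposited table gives a log2 value per peak whose contrast is not stated. It tracked a ratio of ratios, library 1 over library 0 in rmTBI divided by library 1 over library 0 in sham (Pearson r = 0.99 across 33977 peaks, no independent replicates). The deposited value lay above this ratio by a median of 0.04 (log2) over all peaks, and by the same 0.04 at the 17 CaMKII rows. It is therefore another quantity than the rmTBI to sham folds above. A comparison of immunoprecipitated RNA over input RNA would have this form, but the labels give the anti-m6A antibody for all 4 libraries, and whether the numbers mark input and immunoprecipitate is not settled by the labels. If they do, each rmTBI to sham fold above averages over both kinds of library, and each ratio of library 1 to library 0 is an enrichment over input. In the authors' deposited table the CaMKII values ran from -0.28 at the longer Camk2d row to 0.31 at the 3' UTR rows of Camk2g, with 9 above and 8 below 0. The smallest p-value of the family in the authors' deposited table was 0.257, at the third 3' UTR peak of Camk2a. The deposited adjusted p was 0.998 at each of the 17 CaMKII rows. By these deposited values none of the 17 rows passed at an adjusted p under 0.05.

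The rest of the pathway was read from 7 lists of 67 genes, of which 60 had a peak and were tested. Among these 60 genes, 0 had a called peak, where 0.117% of all tested genes had one. At gene level 39 lay higher and 21 lower in rmTBI, with a median log2 fold of 0.05, beside 5327 higher and 4887 lower and a median of 0.01 over all genes. Calmodulin, which binds calcium and in that state binds and activates the kinase, was represented by Calm2, with 7293 and 6489 CPM in rmTBI and 7735 and 7013 CPM in sham (log2 -0.10, SE 0.15), and by Calm3 (log2 0.01, SE 0.22). Gap43, a calmodulin-binding protein of growth cones, stood at 0.17 (SE 0.17), the smallest peak p-value of that list. The 4 tested genes of calmodulin and its buffers were 3 higher and 1 lower (median 0.05).

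The inhibitor genes of CaMKII lay on opposite sides of 0. Camk2n1, an abundant inhibitor of the active kinase, held 1127 and 1244 CPM in rmTBI and 1078 and 1152 CPM in sham (log2 0.09, SE 0.16). Camk2n2, its low-level relative, held 9.07 and 6.71 CPM in rmTBI and 13.9 and 10.6 CPM in sham. Both rmTBI libraries of Camk2n2 lay below both sham libraries (log2 -0.64, SE 0.31, unadjusted p = 0.0779, adjusted p = 1.00, edgeR). Camk2n2 has 1 separate peak, and 12.3% of all tested peaks showed this pattern. The 9 other calmodulin kinases were 4 higher and 5 lower (median -0.04). Among them Camk4, a nuclear kinase that phosphorylates CREB, held 397 and 518 CPM in rmTBI and 510 and 635 CPM in sham (log2 -0.32, SE 0.21), and Camkv, a pseudokinase of synapses, stood at -0.05 (SE 0.27).

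The 11 calcium channel genes were 7 higher and 4 lower (median 0.04). Ryr2, which releases calcium from the endoplasmic reticulum, held 525 and 505 CPM in rmTBI and 381 and 363 CPM in sham (log2 0.47, SE 0.16, unadjusted p = 0.0250, adjusted p = 1.00, edgeR). It was the 1 gene of the 60 tested pathway genes with an unadjusted p under 0.05, beside 367 of all 10214 tested genes. Grin2b, the NMDA receptor subunit that docks CaMKII, stood at 0.03 (SE 0.15) and Itpr1, the inositol trisphosphate receptor, at -0.02 (SE 0.23). The 9 anchors at the synapse were 6 higher and 3 lower (median 0.06), with Shank2 at 0.30 (SE 0.17), Akap5 at 0.26 (SE 0.18) and Lrrc7, which encodes the CaMKII-binding protein densin, at -0.23 (SE 0.21). The 16 substrates were 13 higher and 3 lower (median 0.12). Map2, the dendritic microtubule protein, held 4582 and 4186 CPM in rmTBI and 3762 and 3492 CPM in sham (log2 0.27, SE 0.15). Gria1, the AMPA receptor subunit phosphorylated by CaMKII, stood at 0.17 (SE 0.16) and Tiam1, a Rac exchange factor, at 0.12 (SE 0.18). The 9 phosphatase genes were 5 higher and 4 lower (median 0.02), with Ppp1r9b, the spine anchor of protein phosphatase 1, at 0.04 (SE 0.24), Ppm1e, a phosphatase that acts on CaMKII, at 0.18 (SE 0.27) and Ppp2ca at -0.21 (SE 0.18).

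Library totals over the peaks ran from 13753600 to 26888072 counts, and the libraries numbered 1 were the deeper ones in both groups. All 10 markers of cortical excitatory neurons, the main home of Camk2a in this tissue, had peaks, among them Slc17a7. As with Camk2a, 8 of the 10 lay higher in rmTBI (median log2 0.51), as did 52.2% of all tested genes. Cux1 (log2 -0.05) and Rorb (log2 -0.51) lay lower, and 0 of the 10 passed the adjusted test at gene level. The summed level of the 10 was 1516 and 1602 CPM in rmTBI and 1220 and 1294 CPM in sham. Markers of other regions and cells lay lower in rmTBI for all 7 measured thalamic genes (summed level 195 and 226 CPM in rmTBI, 1050 and 1240 CPM in sham), all 8 striatal genes (1126 and 1067 CPM in rmTBI, 2076 and 1947 CPM in sham) and all 5 oligodendrocyte genes (857 and 757 CPM in rmTBI, 1239 and 1139 CPM in sham). The 2 measured choroid plexus genes also lay lower in rmTBI (13.8 and 15.5 CPM, against 57.9 and 69.95 CPM in sham). Interneuron, astrocyte and microglial markers had medians of 0.14, -0.01 and 0.11. The part of these shifts in the Camk2a value was not tested. Several markers have no peak in the table (Prkcd, Tac1, Mag, Gad1, Pvalb, Gfap, Ttr, Folr1 and the 4 blood genes), which gives no level for them.

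**Figure D4:**
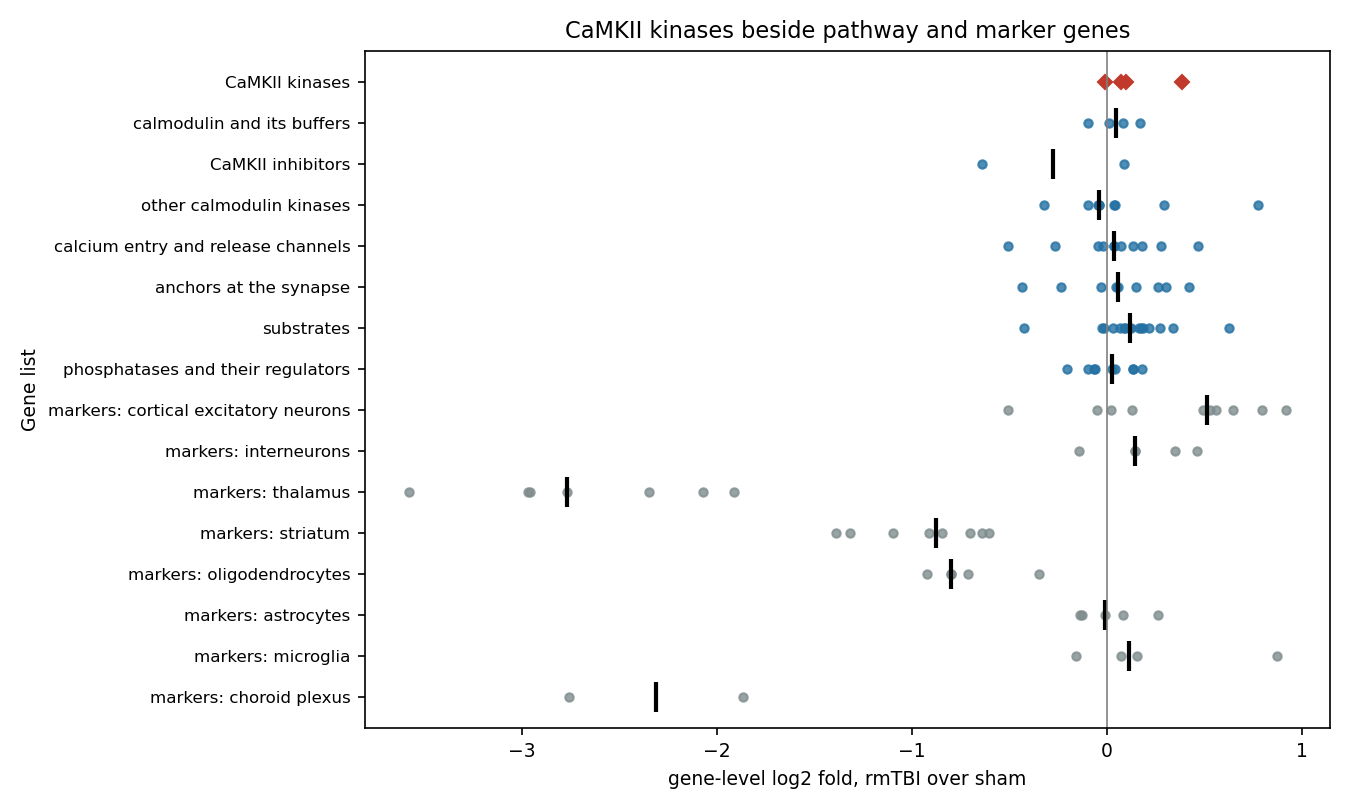
Gene-level log2 fold of rmTBI over sham for the 4 CaMKII kinases (red diamonds), for the genes of the 7 pathway lists (blue) and for marker genes of brain regions and cell types (grey). Each symbol is a gene and black ticks are list medians. The pathway medians lie between -0.28 and 0.12, the thalamic median is -2.77, and the cortical excitatory neuron median is 0.51.

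Genes with profiles most like each kinase over the 4 libraries were picked by the smallest Euclidean distance between log2 CPM values centred on each gene's mean, among 2774 or 2775 tested genes with at least 3 separate peaks. For Camk2a these were Kif21b (distance 0.03), Wfs1 (0.04) and Adcy2 (0.05), where the median gene lay at 0.53. Kif21b, a neuronal kinesin, held 234 and 204 CPM in rmTBI and 179 and 160 CPM in sham, a log2 fold of 0.37. Camk2b was followed most closely by Ddx23, Macf1 and Mbnl1 (0.02 each), Camk2g by Zfp112, Trim33 and Hcfc1 (0.01, 0.02 and 0.03) and Camk2d by Wasf3, Smchd1 and Dlg5 (0.03, 0.04 and 0.04). With 4 points a profile, many genes come close, and the distances are a description.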

How the data were processed

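The authors deposited whole-number read counts per m6A peak and library, which are not normalized, and for each peak a log2 value with raw and adjusted p-values from an unnamed test. Per the submitters' processing notes STAR, DESeq2 and GRCm39 were used, without versions or roles. The sources used here do not give how peaks were called, or whether counting used strand or let a fragment count at neighbouring peaks, so reads of overlapping or antisense genes may be included. Per the file headers, peaks were called per condition.

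edgeR 4.0.16 (R 4.3.3) tested the counts (TMM, filterByExpr, quasi-likelihood F-test, Benjamini-Hochberg over 33415 peaks or 10214 genes, group alone in the model, adjusted p under 0.05). The SE is the log2 fold divided by the square root of F, and intervals use the fit's degrees of freedom. Gene counts sum, over groups of rows of a gene that overlap by at least 1 base, the row with the highest count. Ratios within a label number or between numbers had 0.5 counts added. Exact tests used SciPy 1.17.1. DESeq2 1.42.0 and the other alternatives are under the closing section.

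The members and lists were chosen with earlier results of these data known. Named were every member, with the row of highest count in each class and that of smallest p, and from each list any gene with a called peak, otherwise the gene with the smallest peak p and the 2 with the highest counts. Gap43, Camk2n2, Camk4, Ryr2, Shank2, Tiam1 and Ppp2ca had the smallest peak p. Marker genes served as context. No genome sequence was used here.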

Additional observations from a re-analysis of the deposited data

How the results depend on the processing

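The number of called CaMKII peaks was 0 under library-size scaling, DESeq2, no filter, a minimum of 10 counts in every library, 1 row per group of overlapping rows and without any 1 library. Adding the label number to the model (the replicate block) gave 6 called CaMKII rows, in a fit that called 10.6% of all peaks (3553) and 14.4% of genes. All 6 were rows of Camk2a, and both overlapping rows of its last 3' UTR peak were among them. It also gave 25 pathway genes with a called peak. The share of all genes with a called peak in that fit was not computed, and a gene with more peaks has more rows that can be called. The count therefore cannot be read against the 10.6% or the 14.4%. The Camk2a gene-level log2 in that fit was 0.38 (SE 0.03, edgeR adjusted p = 1.05e-31). The labels do not say that the numbers pair libraries. Differences between the libraries of a group correlated at 0.65 across 30145 peaks, and the authors' deposited log2 value also sets library 1 against library 0 in both groups, so the numbers have a role in common across the groups that the labels do not name. Should each group be 1 sample, that fit holds no spread between samples. The count over all peaks was 29, and it was 131 with DESeq2 (0.386%), 2 with library-size scaling, 0 with at least 10 counts in every library (855 at an unadjusted p under 0.05, edgeR), 17 with 1 row per group of overlapping rows, and 82 to 122 with a library left out. The Camk2b gene-level log2 turned to 0.037 with rmTBI-set peaks alone and to 0.012 as the median over rows.

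With a library left out, gene-level log2 values ran from 0.25 (without rmTBI library 0) to 0.50 (without rmTBI library 1) for Camk2a, -0.14 to 0.14 for Camk2b, -0.16 to 0.27 for Camk2d and -0.032 to 0.20 for Camk2g. Pair differences ran from 0.32 to 0.46 (Camk2a minus Camk2b), 0.23 to 0.41 (Camk2a minus Camk2d), 0.048 to 0.53 (Camk2a minus Camk2g), -0.17 to 0.02 (Camk2b minus Camk2d), -0.34 to 0.13 (Camk2b minus Camk2g) and -0.36 to 0.30 (Camk2d minus Camk2g). By row, those of Camk2a stayed above 0 but moved widely: 0.021 to 0.70 and 0.054 to 0.51 at the 5' UTR rows, 0.27 to 0.48, 0.30 to 0.47 and 0.12 to 0.74 at the 3' UTR peaks before the last in 5' to 3' order, and 0.097 to 0.61 and 0.11 to 0.60 at the rows of the last. Those of Camk2b, Camk2d and Camk2g changed sign: Camk2b from -0.13 to 0.16, -0.055 to 0.13, -0.37 to 0.19, -0.10 to 0.13 and -0.11 to 0.13, Camk2d from -0.20 to 0.30 and -0.19 to 0.27, Camk2g from -0.54 to 0.55 at both 3' UTR rows and -0.30 to 0.52 at the coding row. Leaving out a library of a group leaves the other to stand for it, assumed to vary like the rest. The cause of these shifts was not tested. Depth is lowest for Camk2d, which rests on 126 to 220 counts a library.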
